A study of Caenorhabditis elegans with 2 samples.

Results

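The genes described here encode 9 parts of the integrin attachment that anchors the contractile lattice of C. elegans body muscle: unc-52, pat-2, pat-3, pat-4, unc-97, pat-6, unc-112, deb-1 and act-4, out of 19973 nuclear protein-coding genes in the annotation. They were chosen by name with earlier results on these peaks known, pat-4 and act-4 already being known to have a thresholded peak, and every peak summit inside each gene or within 2000 bp of it was then collected. The peak values that chose them are therefore a description, and no test was made on them.

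Binding of SOX-2, a transcription factor with an HMG box, was mapped by chromatin immunoprecipitation and sequencing (ChIP-seq) in whole late embryos of strain RW12244, staged by egg bleaching and collected at 3.5 hours. Allele st12244[sox-2::TY1::EGFP::3xFLAG] on chromosome X tags the endogenous gene by CRISPR insertion, so SOX-2 was pulled down with anti-GFP as a fusion protein and not in its native form. The 2 biological replicates of this strain were the only group, with no second genotype, stage or treatment, and the control named in the labels was not analysed here. Because whole embryos were used, binding in muscle nuclei and binding in other nuclei cannot be told apart.

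In body muscle the actin filaments are held at dense bodies, and the myosin filaments at M-lines, both of which sit on integrins in the cell membrane. Perlecan in the basement membrane lies outside the integrin pair, and inside the cell the integrin-linked kinase PAT-4, together with UNC-97, PAT-6 and UNC-112, joins the receptor to the vinculin and actin of the dense body. Loss of most of these genes paralyses the embryo and arrests its growth, which is the Pat phenotype after which several of them are named. SOX proteins bind short DNA sites with the core letters CATTGT or CTTTGT.

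The sequence of the whole pat-4 peak is shown first, since it was the strongest peak within 2000 bp of any of these genes, followed by 101 bases around the summits of 5 other peaks. They come from the NCBI WBcel235 sequence, the assembly also called ce11, and are printed 5′ to 3′ on the strand of the named gene. Capitals mark the core letters CATTGT or CTTTGT, or the reverse complement of either.
pat-4 peak, chrIII:95020-95303, minus strand: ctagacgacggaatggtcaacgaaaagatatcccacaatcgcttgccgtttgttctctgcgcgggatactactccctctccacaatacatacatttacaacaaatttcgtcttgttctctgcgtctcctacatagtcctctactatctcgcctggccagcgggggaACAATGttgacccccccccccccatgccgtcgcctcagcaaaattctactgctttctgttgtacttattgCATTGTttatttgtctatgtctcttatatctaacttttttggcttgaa
unc-112 upstream summit, chrV:14697096-14697196, minus strand: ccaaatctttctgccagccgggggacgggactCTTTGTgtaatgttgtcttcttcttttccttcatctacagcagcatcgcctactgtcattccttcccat
pat-3 upstream summit, chrIII:3915921-3916021, minus strand: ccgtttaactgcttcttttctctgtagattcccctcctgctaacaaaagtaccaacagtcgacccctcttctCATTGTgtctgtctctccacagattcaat
pat-6 intron summit, chrIV:263359-263459, minus strand: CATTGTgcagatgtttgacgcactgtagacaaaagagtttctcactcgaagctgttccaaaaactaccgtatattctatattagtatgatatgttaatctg
pat-6 upstream summit, chrIV:264479-264579, minus strand: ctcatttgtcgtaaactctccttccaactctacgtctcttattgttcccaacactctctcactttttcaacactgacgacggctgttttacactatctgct
act-4 intron summit, chrX:4961150-4961250, plus strand: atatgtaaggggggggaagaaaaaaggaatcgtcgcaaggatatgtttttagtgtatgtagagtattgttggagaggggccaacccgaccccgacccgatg
The pat-4, unc-112, pat-3 and pat-6 intron summits carry a core motif within 50 bp. The pat-6 upstream and act-4 summits do not. Only 4 of the 17 ranked summits at these genes carry such a motif, and all 4 are printed here. The sequences shown are therefore not a fair sample of the 17.

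The files hold peak lists and no read counts, so the depth of the libraries is unknown. The ranked list of the series used here, made from both replicates, held 8486 nuclear peaks, with signals over the whole list from 32.7 to 2123 and a median of 40.8, where signal is the authors' own value for a peak on a scale the sources used here do not name. Each ranked peak also has an irreproducible discovery rate (IDR), an estimated rate of irreproducible peaks at its level of agreement between repeated rankings. The thresholded list kept 677 of the ranked peaks, all at an IDR of at most 1%, with a median signal of 104.3. Replicate 1 had 23706 ranked peaks with a median signal of 17.8, and replicate 2 had 24418 with a median of 16.8. A peak below the lowest listed signal leaves no trace in such lists. The series has a second ranked list, of 8525 peaks, and the lists do not hold all the same peaks, so a gene without a summit in one may have one in the other. Of the 17 summits described below, 15 stood in both lists with the same signal, but for 7 of the 15 the IDR differed by more than 1.5 times. IDR values are from the first list unless said otherwise, and each of the 15 was on the same side of the 1% threshold in both.

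A thresholded summit lay within 2000 bp of 2 of the 9 attachment genes, pat-4 and act-4, beside 4.83% of all protein-coding genes. A ranked summit lay within that distance of 7 of the 9, beside 40.2% of all genes, and pat-2 and unc-97 had none. In the replicates' own ranked lists, 8 of the 9 had a summit in replicate 1, beside 75.1% of all genes, and all 9 had one in replicate 2, beside 75.7%. The replicates' own thresholded lists held a summit at pat-4 and act-4 in replicate 1 (2 of 9, beside 4.01% of all genes) and at pat-4 alone in replicate 2 (1 of 9, beside 4.1%). The conservative list of the series also held both genes, beside 4.83% of all genes. Both replicates' own lists held a thresholded summit at 1 of the 9 (beside 2.75% of all genes) and a ranked summit at 8 of the 9 (beside 62.0%). When each summit went only to the protein-coding gene whose 5′ end was closest, up to 2000 bp away, 2 of the 9 had a thresholded summit, beside 2.26% of all genes, and 6 had a ranked one, beside 22.4%. Since the choice of genes rested on these lists, the counts are given without a reading.

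The strongest ranked signal had a median of 60.6 over the 7 attachment genes with a summit, against 43.1 over the 8023 genes that had one. The corresponding medians were 31.6 against 20.3 in replicate 1 and 31.1 against 19.2 in replicate 2. The gene windows held 17 ranked summits in 111905 bp, or 1.52 per 10 kb, against 0.840 per 10 kb over the windows of all genes. Of these 17 summits, 7 had a partner within 100 bp in the ranked lists of both replicates. The medians and the density include the pat-4 and act-4 peaks, known when the genes were chosen, and are likewise given without a reading.

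**Figure D1:**
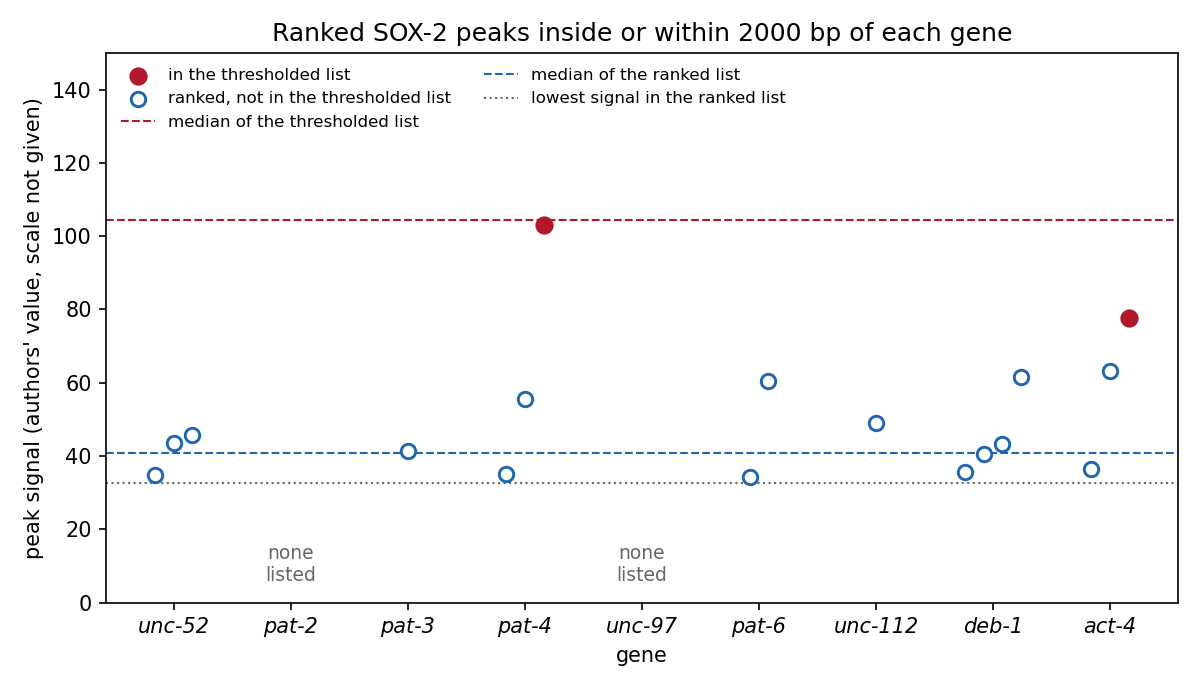
Signal (authors' value) of each of the 17 ranked series peaks inside or within 2000 bp of the attachment genes, with filled points for thresholded peaks, dashed lines at the list medians (104.3 thresholded, 40.8 ranked) and a dotted line at the lowest ranked signal, 32.7. pat-4 at 103.0 and act-4 at 77.6 are the filled points, and pat-2 and unc-97 have none listed.

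pat-4 encodes the integrin-linked kinase homologue, a scaffold at the centre of the attachment (WBGene00003931, chrIII:89453-94809, minus strand). Its main peak had its summit at chrIII:95162, in intergenic sequence 353 bp upstream of the annotated 5′ end, and no other protein-coding gene had a 5′ end closer to it. The signal was 60.1 in replicate 1 and 48.3 in replicate 2, or 54.2 ± 8.28 (SD, n = 2), and the summits of the replicates lay 12 and 5 bp from that of the series. The peak passed the IDR threshold in both replicates, in the series list and in the conservative list.

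In the series list the pat-4 peak had a signal of 103.0 and an IDR of 0.0681%. It ranked 426th from the top, with 346 thresholded peaks above it, so its signal was near the median of that list. The window of C29F9.8 also took in this summit, at 1621 bp downstream of that gene. CATTGT lay 25 bp from the summit on the strand opposite to pat-4, and again 95 bp from it on the strand of pat-4. These are the capital letters of the pat-4 sequence shown first.

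The other pat-4 summits were weaker. At chrIII:89348, 105 bp downstream of the gene, the series signal was 55.6 with an IDR of 18.4%, or 70.9% in the second ranked list, from a replicate 1 peak of 44.0 with no replicate 2 partner within 100 bp. At chrIII:88207, in a coding exon of the neighbour mrpl-40, the series signal was 35.1, with 24.3 in replicate 1. Replicate 2 had no partner there within 100 bp, but a peak of 18.7 within 200 bp. Farther off, 2942 bp downstream of pat-4 and outside the window, a summit of 69.2 with an IDR of 1.99% lay 127 bp from the 5′ end of attf-3. CATTGT overlapped that summit, which had 35.0 in replicate 1 and 27.8 in replicate 2 (31.4 ± 5.14, SD, n = 2). Replicate 2 alone also listed 4 peaks inside pat-4, with signals from 13.3 to 16.6.

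Genes were also ranked by their strongest thresholded peak within 2000 bp, and the neighbours of pat-4 in that order were not on the muscle lists used here. The next gene above was emg-1, with a peak of 103.15 at 903 bp downstream, which had 45.5 in replicate 1 and 49.2 in replicate 2. Above it came hsp-90, which encodes the HSP90 chaperone, and C47E8.4, sharing a peak of 103.62. The next genes below were vps-22 and C27F2.9, sharing a peak of 102.6, and then Y65A5A.2 with 102.57. A further 3 thresholded peaks in this range were not the strongest of any gene, 1 of 103.12 near klp-6 and pcf-11, which have stronger ones, and 2 of 102.9 and 102.76 with no protein-coding gene within 2000 bp. At emg-1, hsp-90 and vps-22 the replicates lay nearer to each other than at pat-4, while Y65A5A.2 had 58.3 in replicate 1 and 41.0 in replicate 2.

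**Figure D2:**
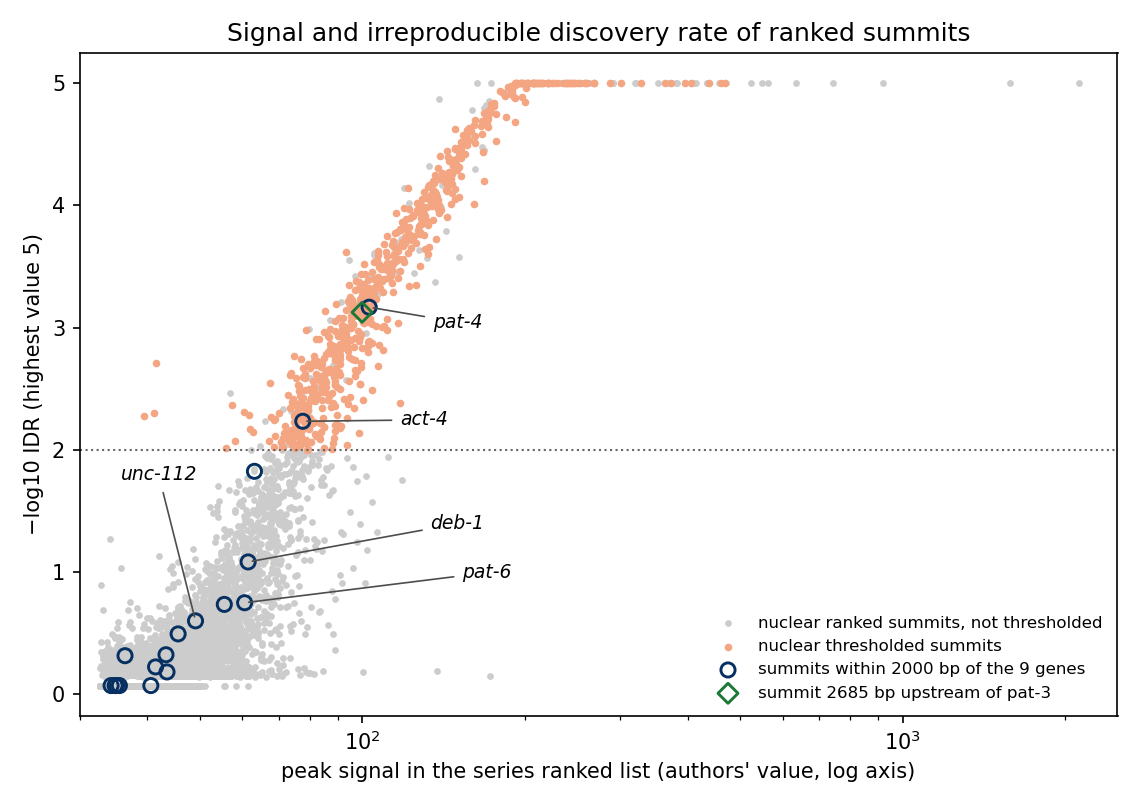
Signal (log axis) and −log10 IDR of every nuclear peak of the series ranked list, with thresholded peaks in orange, the 17 summits within 2000 bp of the attachment genes ringed, and the peak 2685 bp upstream of pat-3 as a diamond. The dotted line is the threshold of 2, an IDR of 1%; the pat-4 and act-4 rings lie above it, and the other 15 lie below.

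unc-52 encodes perlecan, the basement membrane proteoglycan under the muscle (WBGene00006787, chrII:14647321-14684456, minus strand). It was the longest of the 9 genes, at 37136 bp, and had 3 ranked summits, none thresholded. At chrII:14678455, in an intron and 2 bp from the 5′ end of hhat-1, the series signal was 45.6, with 31.7 in replicate 1 and no partner in replicate 2. The summit at chrII:14645595, 1726 bp downstream of the gene, had 43.5, and the intron summit at chrII:14682633 had 34.9. Each of the 3 had a partner within 100 bp in a single replicate. Within 200 bp the summit at chrII:14645595 had one in both, with 21.9 in replicate 1 and 21.3 in replicate 2.

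Replicate 1 listed 17 peaks in the unc-52 window, or 4.13 per 10 kb, and replicate 2 listed 12, or 2.92 per 10 kb, against 2.38 and 2.45 per 10 kb over the windows of all genes. Their median signals were 18.0 in replicate 1 and 14.3 in replicate 2, against 17.8 and 16.8 over the whole lists. None was thresholded, and the lowest IDR among them was 17.3% in replicate 1 and 76.9% in replicate 2. The perlecan gene thus had listed peaks of high IDR along its length in each replicate. None of its 3 series summits had a partner within 100 bp in both, though that at chrII:14645595 did within 200 bp.

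pat-2 encodes the alpha integrin of body muscle (WBGene00003929, chrIII:8818899-8825266, plus strand). It had no summit within 2000 bp in either ranked list of the series. Replicate 1 listed none within the window and one of 22.6 at 2174 bp upstream, just outside it. Replicate 2 listed 19.1 in an intron and 17.9 at 255 bp upstream. The integrin partner of PAT-3 was therefore the one gene of the 9 with no summit in replicate 1.

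pat-3 encodes the beta integrin, the common partner of the alpha chains (WBGene00003930, chrIII:3908931-3914149, minus strand). The ranked summit within its window, at chrIII:3915971, lay 1822 bp upstream and had a series signal of 41.4 and an IDR of 59.7%. It was 18.8 in replicate 1 and 28.4 in replicate 2, or 23.6 ± 6.80 (SD, n = 2). CATTGT stood 22 bp from this summit on the pat-3 strand.

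A thresholded peak lay beyond the window, with its summit at chrIII:3916834, 2685 bp upstream of pat-3. That summit was 133 bp from the 5′ end of the neighbour ccdc-47. Its signal was 99.9 in the series list with an IDR of 0.0750%, and 48.1 in replicate 1 and 46.3 in replicate 2 (47.2 ± 1.25, SD, n = 2). It passed the threshold in both replicates and stood in the conservative list, with no core motif within 50 bp. By signal it was the nearest match to the pat-4 peak around these genes, and by position it was closer to ccdc-47 than to pat-3.

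Of the partners of PAT-4 in the kinase complex, UNC-97 is the PINCH homologue, an adaptor of LIM domains, and PAT-6 is the parvin homologue, which binds actin. unc-97 (WBGene00006826, chrX:5593133-5594965, plus strand) had no summit in the ranked list used here. The second ranked list of the series held 3 at unc-97, with 47.6 at 1158 bp upstream, 33.4 at 136 bp downstream and 36.6 at 701 bp downstream. That list held a summit at 8 of the 9 genes, beside 40.0% of all genes. At the upstream site replicate 1 had 18.8 and replicate 2 had 31.1.

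pat-6 (WBGene00003932, chrIV:261886-264232, minus strand) had a summit at chrIV:264529, 297 bp upstream of its 5′ end. By distance from the gene's end, this was the placement most like that of pat-4. The series signal was 60.6, with rank 1339 and an IDR of 17.8%, or 2.61% in the second ranked list. Replicate 1 had 31.4 and replicate 2 had 37.0, or 34.2 ± 3.97 (SD, n = 2), and neither passed the threshold. The pat-6 upstream peak was thus lower than the pat-4 peak in both replicates. A second summit, in a pat-6 intron at chrIV:263409, had 34.3, with 17.7 in replicate 2 and no replicate 1 partner, and held CATTGT 45 bp away.

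unc-112 encodes the kindlin homologue, which binds the beta integrin tail and PAT-4 (WBGene00006836, chrV:14691855-14696654, minus strand). Its ranked summit at chrV:14697146 lay 492 bp upstream, with a series signal of 49.1, an IDR of 25.1% and CTTTGT 13 bp away. Replicate 1 had 24.4 and replicate 2 had 31.1, or 27.7 ± 4.75 (SD, n = 2). This was the motif closest to a summit among the 17. Just outside the window, 2272 bp downstream, a summit of 49.3 lay over a tRNA gene, with 17.1% of its 32-base words repeated elsewhere in the genome.

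pat-4, pat-6 and unc-112 each had a ranked summit upstream of the 5′ end, at 353, 297 and 492 bp, that both replicates listed within 100 bp. Of these genes pat-4 alone reached the thresholded list, at 103.0, against 60.6 for pat-6 and 49.1 for unc-112. The order pat-4, pat-6, unc-112 held in replicate 1, at 60.1, 31.4 and 24.4, and in replicate 2, at 48.3, 37.0 and 31.1. With 2 replicates and a selected gene, this order was not tested.

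**Figure D3:**
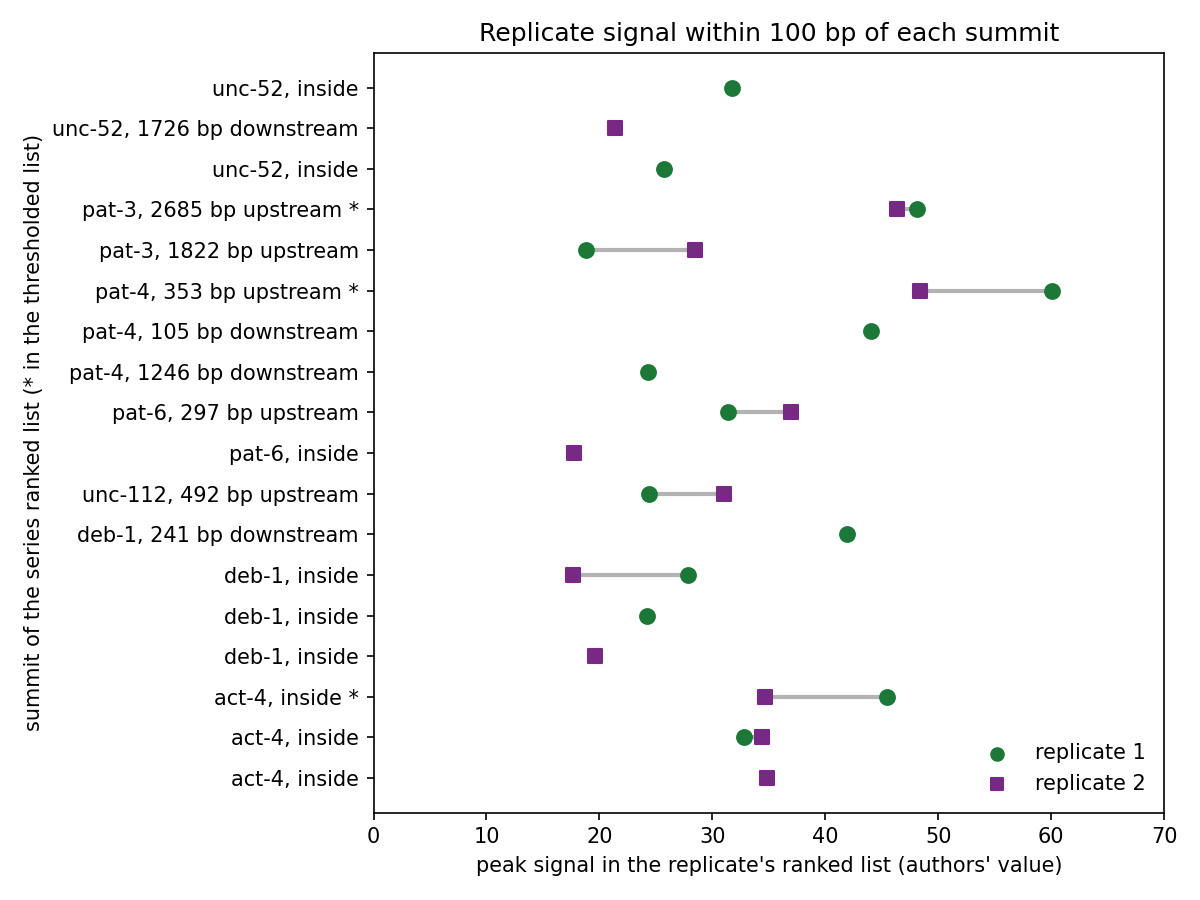
Signal (authors' value) in replicate 1 (circles) and replicate 2 (squares) within 100 bp of each of the 17 ranked summits and of the summit 2685 bp upstream of pat-3, with a bar joining the values where both replicates listed a peak and an asterisk for thresholded peaks. The pat-4 summit 353 bp upstream, at 60.1 and 48.3, is the highest plotted in both replicates.

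deb-1 encodes vinculin, which links the integrin complex to actin at the dense body (WBGene00000942, chrIV:7085215-7094266, minus strand). Its strongest summit, at chrIV:7084974, was 241 bp downstream of deb-1 and 292 bp from the 5′ end of rps-4, a ribosomal protein gene. The series signal there was 61.5 with an IDR of 8.26%, or 60.7% in the second ranked list, from 41.9 in replicate 1 and no partner in replicate 2. The other 3 summits lay inside the gene, with 43.3 and 40.6 in introns and 35.5 in the 3′ UTR. The intron summit at chrIV:7087108 alone had partners within 100 bp in both, with 27.9 in replicate 1 and 17.7 in replicate 2 (22.8 ± 7.22, SD, n = 2). Within 200 bp the intron summit at chrIV:7088092 also did, with 24.2 in replicate 1 and 19.1 in replicate 2. No ranked summit of the series lay within 2000 bp upstream of the outermost deb-1 5′ end. The intron summits at chrIV:7087108 and chrIV:7088092 lay 329 and 185 bp upstream of other annotated deb-1 5′ ends, inside the gene.

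act-4 encodes an actin of the body muscle thin filament (WBGene00000066, chrX:4960621-4964413, plus strand). Its thresholded peak, chrX:4961058-4961341, had its summit in an intron 579 bp from the 5′ end, with a signal of 77.6, an IDR of 0.584% and rank 768. Replicate 1 had 45.4, which passed the threshold, and replicate 2 had 34.7, which did not (40.1 ± 7.58, SD, n = 2). Of the thresholded peaks, 601 had a higher signal, so act-4 stood in the low end of that list, unlike pat-4. No core motif lay within 50 bp, and CATTGT first occurred 116 bp from the summit.

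A second intron summit of act-4, at chrX:4962665, had a signal of 63.2 and an IDR of 1.50%, the value closest to the 1% threshold from the other side. That summit lay 210 bp upstream of another annotated act-4 5′ end, inside the gene. Replicate 1 had 32.8 and replicate 2 had 34.4, or 33.6 ± 1.13 (SD, n = 2). A further summit of 36.4 at chrX:4961914 had 34.9 in replicate 2 and no partner in replicate 1. Each replicate listed 7 peaks in the act-4 window, or 8.98 per 10 kb.

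Actin genes share sequence, and 22.8% of the 32-base words in act-4 coding exons occur elsewhere in the genome, against none for pat-4. Within 100 bp of each of the 17 summits no such repeated word was found, whereas the thresholded peaks averaged 10.6% with a median of 0. Of the other actin genes, act-2 had 49.1, act-3 had 44.8 and act-5 had 35.4 in the ranked list, none thresholded, and act-1 had no summit.

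**Figure D4:**
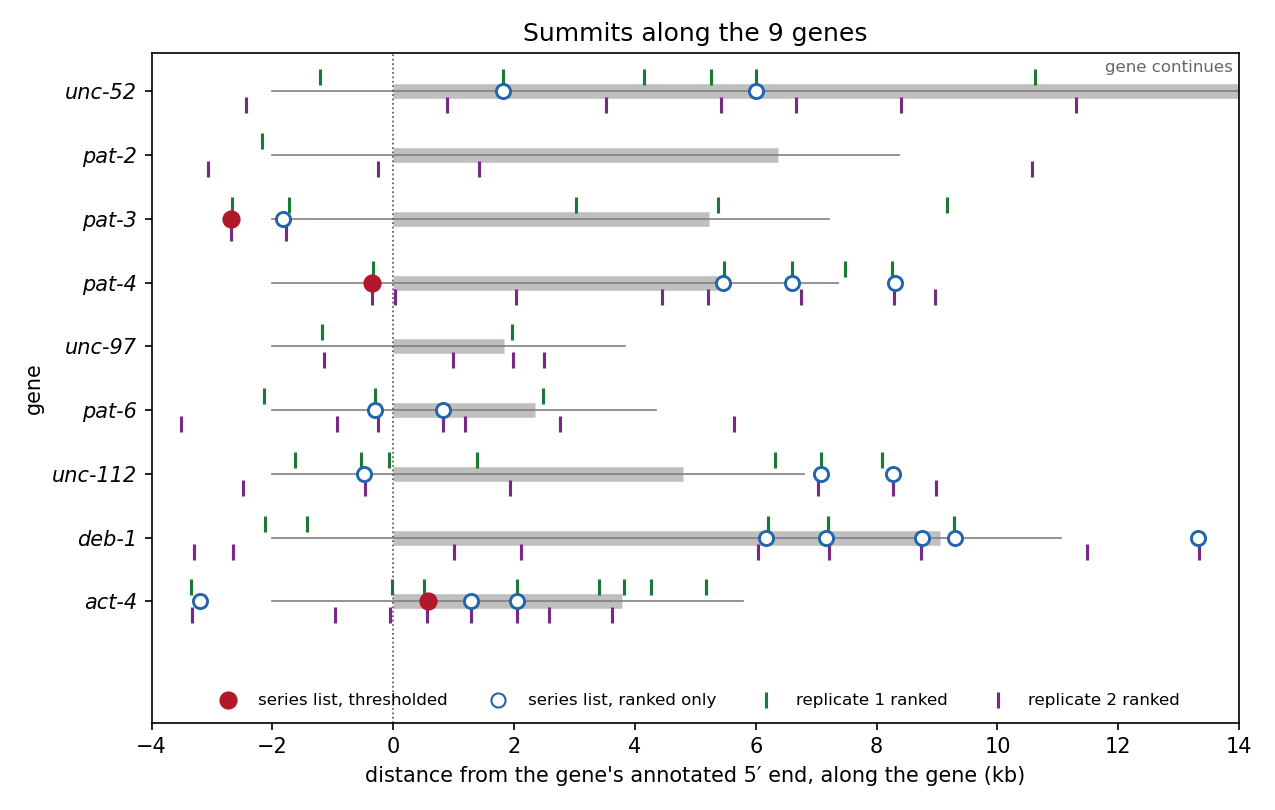
Distance of summits from the annotated 5′ end of each attachment gene (kb, negative is upstream), with grey bars for genes, thin lines for the 2000 bp on each side, circles for series summits (filled where thresholded) and ticks for replicate 1 (above) and replicate 2 (below). A series summit of each of pat-4, pat-6 and unc-112 stands just upstream of the 5′ end. The act-4 summits within 2000 bp stand inside the gene, and another, 3198 bp upstream, lies outside that window. The axis stops at 14 kb, so the unc-52 summit 1726 bp past that gene's 3′ end is off the plot.

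The core motif, CATTGT or CTTTGT on either strand, lay within 50 bp of 4 of the 17 summits (23.5%) and in 2 of 34 flanks of equal width, centred 300 bp to the left or right (5.88%). The share was 16.6% over all 8486 nuclear ranked summits and 20.2% over the 660 nuclear thresholded summits, with 10.2% and 11.0% in their flanks. These counts take a motif only where all of its letters lie within the stated distance. Distances given above for single summits run to the nearest letter of the motif. The pat-3 and pat-4 motifs, at 22 and 25 bp by that measure, thus count within 50 bp and not within 25 bp. The order of the shares depended on the window. Within 25 bp the motif lay at 5.88% of the 17 summits, against 8.53% of all ranked summits, and within 100 bp at 23.5%, against 28.6%. Flanks of the 17 held it in 1 of 34 (2.94%) at 25 bp and in 7 of 34 (20.6%) at 100 bp. The 4 summits with a motif within 50 bp were those of pat-4, pat-3 and unc-112 upstream and of the pat-6 intron. The letters are a match to a short word and not a measured binding site.

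A wider list of 73 genes of the matrix, receptors, adhesion, thin and thick filaments, epidermal attachment and muscle fate gave the setting. A ranked summit lay within 2000 bp of 46 of them (63.0%), beside 40.2% of all genes. A thresholded summit lay within that distance of 3 (4.11%), him-4, unc-45 and src-1, beside 4.83% of all genes. These shares count a gene once whatever its length, and gene length was not matched. ptp-3 had 14 ranked summits and vab-10 had 9. A difference between the lists was not tested. Matrix genes had a ranked summit in 6 of 10 cases, receptors in 2 of 3, adhesion adaptors and signalling genes in 15 of 22, and actin and thin filament genes in 8 of 14. The counts were 7 of 11 for the thick filament and M-line, 6 of 7 for muscle-to-epidermis attachment, and 2 of 6 for the regulators of muscle fate.

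him-4, which encodes the matrix protein hemicentin, had the highest of the 3 at 245.8, in an intron over a tRNA gene, with 135.4 in replicate 1 and 112.1 in replicate 2. unc-45, a myosin chaperone gene, had 99.4 at 145 bp downstream, with 38.6 in replicate 1 and 52.5 in replicate 2, and the peak passed in replicate 2 alone. src-1, a tyrosine kinase gene, had 95.4 in an intron, with 52.7 in replicate 1 and 40.4 in replicate 2, passing in both. The myoD homologue hlh-1 had 38.0, not thresholded. The talin gene tln-1, the alpha integrin gene ina-1, the muscle myosin gene myo-3 and the paramyosin gene unc-15 had no ranked summit.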

How the data were processed

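Per the labels, chromatin of whole late embryos was sonicated to fragments of 200 to 800 bp, precipitated with anti-GFP and sequenced, in 2 biological replicates. The authors deposited peak lists on ce11. Each list holds a peak signal, the authors' value on a scale that the labels and files used here do not name, and the ranked lists hold the −log10 of the IDR (highest value 5, threshold 2), as deposited by the authors. The aligner and peak caller are not given in these sources. The replicates' lists are per sample, and the series lists use both replicates. Tested on the files, all 677 thresholded peaks are ranked peaks past the IDR threshold, which 773 ranked peaks reach. In the series ranked lists, 4 more columns without a sample name were left aside.

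Summits were placed (Python 3.11.15, pandas 2.3.3, numpy 2.4.6) on WBcel235, whose chromosome ends no peak passed, and on the Ensembl release 115 annotation. RefSeq gives the same gene ends for 8 of the 9 genes, and for pat-2 an end at 8825274. Coordinates are 1-based, and distances run from the gene's ends. Replicate summits were paired within 100 bp. Both strands were searched for motifs, and 32-base words were counted over the genome. The scripts were tested on simulated peaks. Of 74 related genes listed, 73 were found by name. The genes and lists were chosen with earlier results of these data known, and genes are named as members, as thresholded or next strongest related genes, or as neighbours in signal or position. No statistical test was made. Nothing in the labels says whether the replicates were separate cultures beyond calling them biological.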

Additional observations from a re-analysis of the deposited data

How the results depend on the processing

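The count of attachment genes with a thresholded summit, 2 at 2000 bp, was 1 when summits had to lie inside the gene (act-4), 1 at an IDR of at most 0.001 (pat-4), and 1 to 2 in the lists of single replicates, where act-4 was missing from replicate 2. It was 2 in the conservative list, and 3 at 5000 bp, where pat-3 came in. The count with a ranked summit, 7 beside 40.2% of all genes, was 4 inside the gene alone (15.8% of all genes), 6 at 1000 bp (31.5%), 7 at 5000 bp (58.7%), and 8 in replicate 1 (75.1%) and 9 in replicate 2 (75.7%). The share of all genes with a thresholded summit, 4.83%, was 8.32% at 5000 bp, 1.04% inside the gene alone, 2.26% by the nearest 5′ end and 3.13% at an IDR of at most 0.001. The pat-4 signal of 103.0 was 48.3 to 60.1 in single replicates, whose lists have lower signals throughout. Summits with the whole core motif within 50 bp were 4 of 17 (all ranked summits 16.6%). They numbered 1 within 25 bp (8.53%), 4 within 100 bp (28.6%), and 12 for the shorter letters ATTGT or TTTGT (57.6%). In single replicates they were 5 of 43 in replicate 1 (11.6%, all summits 15.1%) and 8 of 44 in replicate 2 (18.2%, all summits 14.9%). Summits paired in both replicates, 7 within 100 bp, numbered 4 within 50 bp and 10 within 200 bp. No paired analysis was possible because there is 1 group. Signals carry no counting error, since no reads are listed.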

Other observations

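The following letter patterns were noticed after the peaks were seen, and their shares are a description. GCCAGCNGGGG is the longest stretch with at most 1 unlike letter (written N) that the 101 bases around the upstream summits of pat-4 and unc-112 share on the strands printed. Searched on both strands over whole peaks, it occurred in 15 of 8486 nuclear ranked peaks (0.177%) and 7 of 660 thresholded peaks (1.06%). The 15 include the pat-4 and unc-112 peaks, where its presence was fixed by how it was chosen. It was in no other of the 17 peaks near the attachment genes. Of those 15 ranked peaks, 11 lay within 500 bp of an annotated tRNA gene, while the nearest one was 440220 bp from the pat-4 summit and 7531 bp from that of unc-112. In the pat-4 sequence it lies beside the motif nearest the summit. CGTCTC occurred in 6 of the 17 peaks (35.3%), at unc-52, pat-4, pat-6, unc-112 and act-4, against 16.7% of ranked and 27.4% of thresholded peaks.

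Among the related muscle genes with no summit in the thresholded list of the series, cap-2, which encodes the beta subunit of the actin capping protein, had the highest ranked signal at 74.7, and the thresholded list of replicate 2 held a summit there. lim-8 followed at 71.2 and cpna-1, a copine gene of the muscle attachment, at 69.7. The cpna-1 summit lay 838 bp downstream of that gene and 359 bp from the 5′ end of F31D5.6.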
